A study of Mus musculus with 27 samples.

Results

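Livers of mice that ate for 120 min after a fast were compared with livers of mice that spent the same 120 min with food they could not eat. The comparison took 6 of the 27 liver libraries of the series, chosen by their labels alone: 3 libraries of refed mice and 3 libraries of mice given caged food. All 27 libraries came from wild-type mice of one strain, written C57/BLN6 in the labels, and every mouse had first fasted for 16 h. The refed group was then fed for 120 min. The caged food group was kept with caged food for the same time, food that could be sensed but not eaten. As controls the series holds 3 livers of fasted mice, and refed and caged food livers of 30, 60 and 240 min with 3 libraries per group. The design text calls the replicates biological, and the age and sex of the mice were not given in the sources used here. The question of the study was how far the sight and smell of food prepare the liver for a meal, and the comparison at 120 min sets mice that ate against mice that were only near food.

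After a fast the liver makes glucose from lactate, glycerol and amino acids, and it burns fatty acids. Glucagon, glucocorticoids and the transcription factors FOXO1, CREB and PPAR-alpha drive the genes for these tasks, and insulin shuts many of them down after a meal. A meal also raises the load of new protein in the endoplasmic reticulum (ER), the compartment where hepatocytes fold the proteins of blood plasma. The unfolded protein response is the set of sensors (IRE1, PERK and ATF6) and transcription factors (XBP1, ATF4 and ATF6 fragments) that adjusts the number of chaperones to that load. G6pc, Pck1 and Hspa5 are common markers of these programmes in liver.

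The 6 libraries held 40654573 to 45484580 normalised read counts and an estimated 43.3 to 52.4 M reads. Normalised read counts were taken here as read counts scaled by a single factor per library. On the first principal component of all 27 libraries, which held 18.3% of the variance, the refed livers lay at 25.2 to 30.2 and the caged food livers at -19.0 to -10.5. On the second component (8.45%), caged food replicate 3 lay at -15.5 and the other caged food livers at 9.85 and 21.7, while refed replicate 1 lay at 9.0 and the other refed livers at -2.46 and -1.51. The hepatocyte markers, 10 genes led by albumin, summed to 5297236 to 5913073 in refed livers and to 6060300 to 6707526 in caged food livers, so the tissue was liver in all 6. Of these 10 genes 0 passed between the groups in limma, and 0 had an unadjusted p under 0.05. Sums of 12 sinusoidal endothelial markers ranged from 30367 to 32810 in refed and from 34689 to 37643 in caged food livers, with 1 gene called (Oit3, lower). Sums of 10 bile duct markers ranged from 1809 to 2246 and from 1266 to 1793, with 1 gene called (Pkhd1, higher). Each of these calls was lost under other settings. The sums of the Kupffer, stellate, leukocyte and erythroid cell markers overlapped between the groups. Of these lists 0 genes passed in limma, and 1 stellate and 1 erythroid gene had an unadjusted p under 0.05. Pancreatic acinar markers summed to at most 493, most of it Cela1 (284 to 486), with Amy2a5 at 0 in all 6 livers. Refed replicate 1 alone had Ctrb1 at 37 (0 to 3 in the other livers), Cpa1 and Clps at 12 and Prss2 at 11, and 0 of the 10 acinar genes tested passed in limma or had an unadjusted p under 0.05. The adipocyte markers Lep and Retn were at 0, and Pck1, which hepatocytes express, made up most of that list's sum. Of the 3 genes of that list tested, 2 were called lower in refed livers. Lipe of that list had 755, 740 and 704 counts in refed against 1128, 1160 and 920 in caged food livers. Fabp4 had 261, 381 and 311 against 360, 341 and 847, which overlap, with caged food replicate 3 the highest. The part of cell composition in the results was not tested, and in whole tissue fewer cells of a type and less RNA per cell cannot be told apart.

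Between refed and caged food livers, 1797 of 15932 genes tested (11.3%) had an adjusted p under 0.05 in limma, with 952 higher (5.98%) and 845 lower (5.3%) in refed livers. Of the called genes, 1667 were protein-coding. Most changes were modest: the median fold among called genes was 1.39 for the genes that rose and 1.45 for those that fell, and 294 genes changed more than 2-fold (124 up, 170 down). The 3 refed and the 3 caged food values did not overlap for 1761 of the 1797 called genes, against 29.7% of all genes tested. Across all genes the median log2 fold change was 0.0031. Fewer genes, 1185, were called without refed replicate 1 and caged food replicate 3, and 1111 without refed replicate 2. Grouping 2 libraries of 240 min by their treatment labels, which conflict with their titles, left 376 genes called at 120 min.

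**Figure D1:**
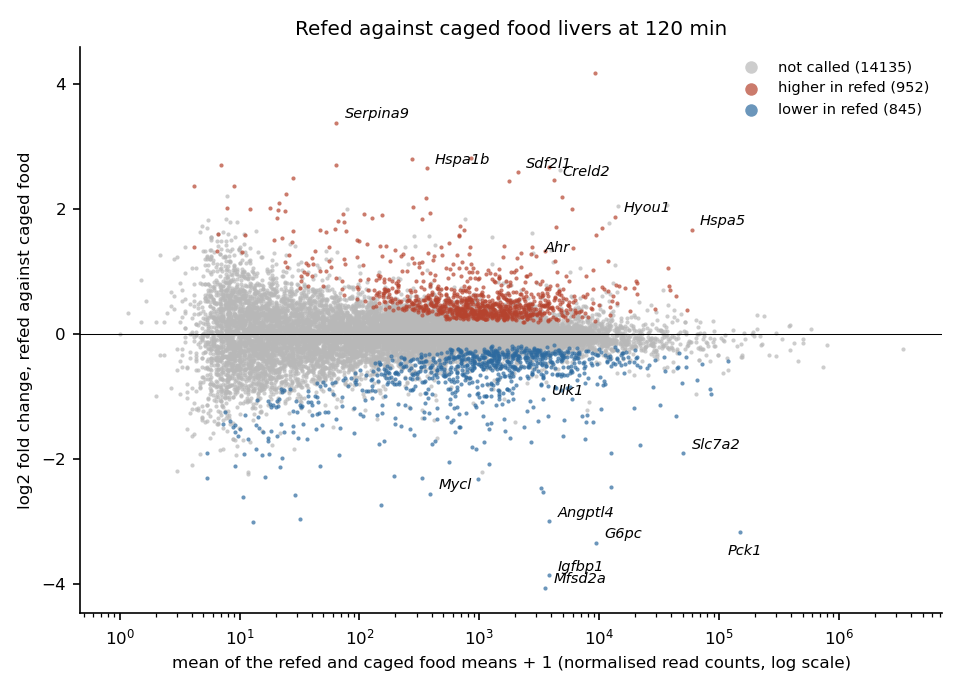
Log2 fold change of refed against caged food livers at 120 min (y axis) against the mean normalised read count of the gene (x axis, log scale); each point is 1 of 15932 genes tested. The 952 genes called higher are red and the 845 called lower are blue, and labels mark some of the genes named, among them Serpina9 at 3.38 and Mfsd2a at -4.06.

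Genes of the proteins that fold and escort new proteins in the ER rose after eating. All 27 listed ER chaperones and folding factors had a positive log2 fold change and 18 of them (66.7%) rose, with a median log2 fold change of 0.72. Hspa5 encodes BiP, the main ER chaperone of the Hsp70 family, and lies on chromosome 2 at 34771970 to 34777547 (GRCm38). Its normalised read counts were 76275, 106102 and 86744 in refed livers and 28797, 31619 and 24097 in caged food livers. Every refed liver stood far above every caged food liver, and the log2 fold change was 1.67 ± 0.22 (SE, n = 3 per group, limma adjusted p = 1.83e-05). Sdf2l1, a cofactor of BiP on chromosome 16 at 17130138 to 17132383, had counts of 2493, 4556 and 3789 against 586, 657 and 519. Its fold was 5.99 (log2 2.58 ± 0.36, limma adjusted p = 3.75e-05), the largest of the group. Creld2 and Manf, small ER proteins released under ER stress, rose by 2.46 ± 0.33 and 2.0 ± 0.26 on the log2 scale. Hyou1, a large ER chaperone that exchanges nucleotide on BiP, had counts of 17746, 25613 and 21159 against 5896, 6608 and 4985 (log2 1.88 ± 0.21, limma adjusted p = 3.45e-06). Replicate 2 was the highest refed liver for each of these 5 genes. The co-chaperone Dnajb9 (log2 1.28 ± 0.19), the disulfide isomerases Pdia4 (1.17 ± 0.21) and Pdia6 (1.02 ± 0.20), the Hsp90 of the ER, Hsp90b1 (1.06 ± 0.24), and the lectin chaperones Calr (0.77 ± 0.19) and Canx (0.49 ± 0.10) also rose. With one library left out at a time, 14 to 18 of the 27 genes passed.

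The promoters of several of these genes hold the ER stress element, the site through which ATF6 and XBP1 act together with NF-Y. It was searched on both strands as CCAAT, any 9 bases and CCACG in the 300 bases from 250 before to 50 after each start in the RefSeq table for GRCm38.p6, where 11178 of the genes tested had a promoter. The 3 windows shown belong to the ER folding genes of lowest p that hold it, with the match in capitals. Creld2 carries the motif on the opposite strand.
Hspa5, chr2:34771985-34772083, plus strand: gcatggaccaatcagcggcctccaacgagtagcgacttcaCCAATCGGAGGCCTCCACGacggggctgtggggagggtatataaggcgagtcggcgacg
Creld2, chr15:88819480-88819578, plus strand: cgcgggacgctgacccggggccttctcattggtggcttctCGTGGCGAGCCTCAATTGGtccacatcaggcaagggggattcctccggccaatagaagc
Pdia6, chr12:17266451-17266549, plus strand: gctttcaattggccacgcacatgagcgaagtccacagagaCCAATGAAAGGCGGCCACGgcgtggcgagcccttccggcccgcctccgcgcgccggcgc

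The matches lie 65 to 47 bases before the start in Hspa5, 126 to 108 before it in Creld2 and 98 to 80 before it in Pdia6. The motif occurred in 39 of 32851 promoters of the table (0.119%) and in 19 of the 11178 promoters of genes tested (0.17%). Among genes higher in refed livers it occurred in 11 of 726 (1.52%), namely Calr, Derl3, Hsp90b1, Canx, Pdia6, Dnajc3, Creld2, Syvn1, Hspa5, Alg12 and Hnrnpa3. It occurred in 0 of the 629 promoters of genes lower in refed livers. In the list of ER folding genes 7 of 23 promoters held it. These are counts of letters in a window, not of bound factors.

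Genes that clear and move ER proteins also rose, by less. In ER-associated degradation, which returns misfolded proteins to the cytosol, 9 of 19 genes rose and none fell (median log2 fold change 0.22). Syvn1, the ubiquitin ligase at the core of this pathway, had counts of 10900, 18020 and 13583 in refed and 4263, 5061 and 4560 in caged food livers. This is a 3.0-fold difference without overlap (log2 1.59 ± 0.18, limma adjusted p = 3.3e-06). Its partner Sel1l rose by 0.69 ± 0.10, Derl2 of the retrotranslocation channel by 0.47 ± 0.08, and Edem1, which selects glycoproteins for disposal, by 0.64 ± 0.12 on the log2 scale. The related Derl3 was 181, 808 and 462 against 64, 64 and 47 (log2 2.80 ± 0.75, limma adjusted p = 0.0156). Herpud1, which organises the ligase complex, rose by 0.74 ± 0.24. The calls of Derl3 and Herpud1 were lost without caged food replicate 3 (limma adjusted p = 0.0548 and 0.229), without refed replicate 2 (0.0976 and 0.255) or without refed replicate 3 (0.0538 and 0.0872), and that of Herpud1 also without caged food replicate 2 (0.0559). Herpud1 also did not pass with no filter (limma adjusted p = 0.078), with the 6 livers fitted alone (0.108), without the 2 libraries of conflicting labels (0.0588) or with them regrouped (0.122), and without refed replicate 1 and caged food replicate 3 (0.097). The count for the list fell to 4 without caged food replicate 3 or refed replicate 2, and to 5 without refed replicate 3.

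Of 37 genes for entry into the ER and for COPII vesicle export, 19 rose and 1 fell, with a median of 0.26. Sec23b, a subunit of the COPII coat, had counts of 2712, 3868 and 3058 against 1716, 1734 and 1597 (log2 0.92 ± 0.11, limma adjusted p = 5.5e-06). The translocon partner Ssr1 rose by 0.64 ± 0.10, the signal peptidase subunit Sec11c by 0.90 ± 0.14 and the signal recognition particle subunit Srp68 by 0.40 ± 0.06. The gene that fell was Sec23a, the paralog of Sec23b, by 0.39 ± 0.09 on the log2 scale. The number called in this list was 13 without caged food replicate 3 and 11 without refed replicate 2.

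Among the sensors and transcription factors of the unfolded protein response, 9 of 16 rose and 1 fell. Ddit3, the gene of CHOP, had 920, 1027 and 1097 counts in refed and 322, 350 and 345 in caged food livers. That is a 2.98-fold difference (log2 1.58 ± 0.21, limma adjusted p = 2.26e-05), with the 3 livers of each group close together. Xbp1 rose by 0.61 ± 0.11, Atf6b by 0.45 ± 0.08 and the PERK gene Eif2ak3 by 0.74 ± 0.14, and Ern1, which encodes the sensor IRE1, by 0.41 ± 0.09. Gene counts do not separate the spliced from the unspliced form of Xbp1 RNA. Atf4 rose by 0.39 ± 0.10, a call lost without caged food replicate 2 (limma adjusted p = 0.0666) or refed replicate 2 (0.0534). The liver factor Creb3l3, bound to the ER membrane and active in fasting, fell by 0.37 ± 0.10 on the log2 scale, and this call was lost in 4 of 6 cases with 1 library left out. Without refed replicate 2 the list had 6 calls.

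The list of integrated stress response genes holds targets of ATF4, the factor that acts when translation is curbed, but not Ddit3, an ATF4 target that rose as given above. Of its 23 genes 4 fell and 0 rose in limma (17.4% called, against 11.3% of all genes tested), with a median log2 fold change of -0.40. Trib3, a pseudokinase that binds AKT, had 351, 217 and 420 counts in refed livers against 1262, 1828 and 1742 (log2 -2.32 ± 0.28, limma adjusted p = 6.22e-06). Sesn2, a leucine sensor of the mTORC1 pathway, fell 2.65-fold, and Eif4ebp1, the translation repressor 4E-BP1, fell 1.44-fold. The fourth was Cebpb, with 712, 509 and 606 against 2348, 1601 and 1163 counts (log2 -1.44 ± 0.35, limma adjusted p = 0.00846), a call lost without caged food replicate 1 (limma adjusted p = 0.0614). Fgf21, a hormone of fasting and stress, spread widely within both groups, 225, 63 and 547 against 428, 385 and 843, and did not pass (log2 -1.38 ± 0.59, limma adjusted p = 0.144). Without refed replicate 3 it passed (log2 -2.11, limma adjusted p = 0.0252).

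**Figure D2:**
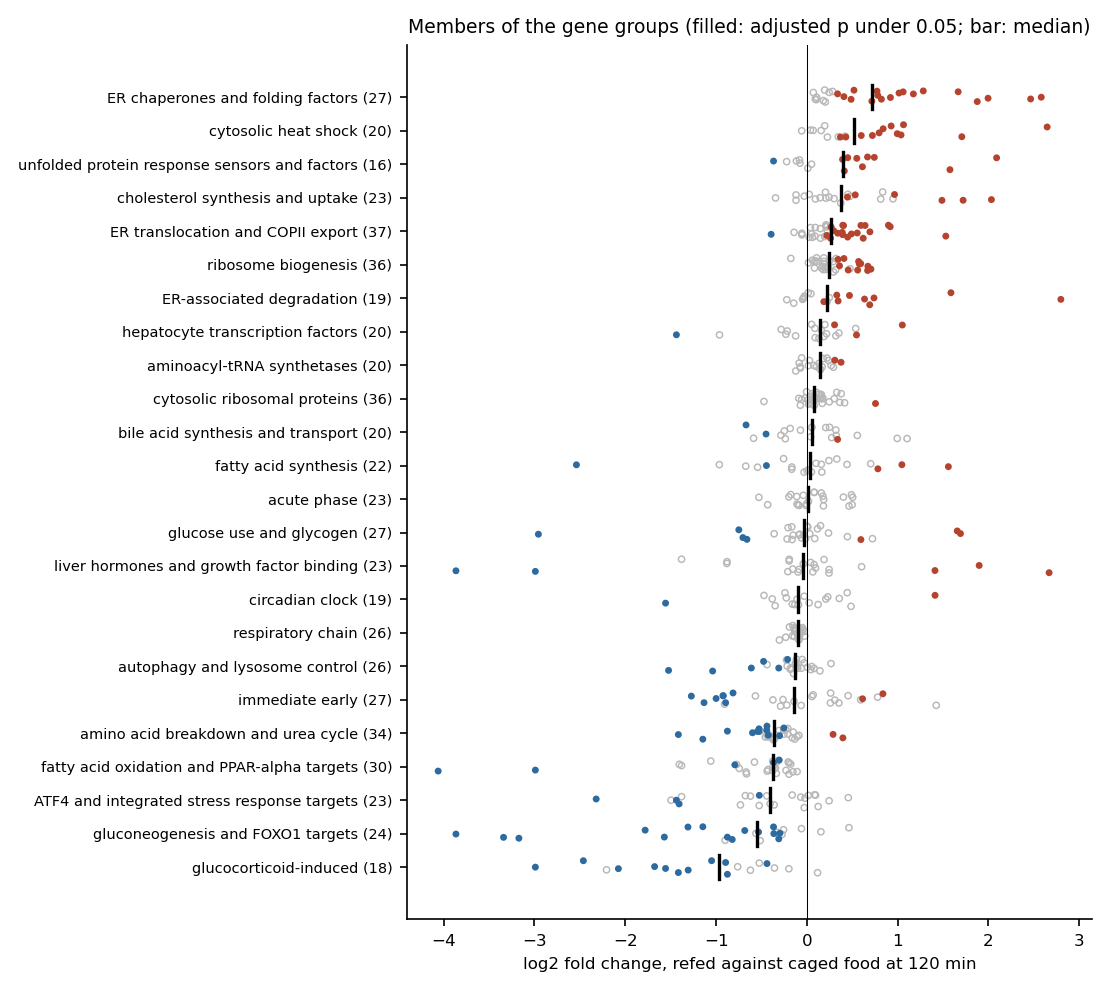
Log2 fold change at 120 min, refed against caged food, of each tested member (points, x axis) of 24 gene groups (rows, number of members in brackets); filled points have an adjusted p under 0.05, red higher and blue lower, and the bar is the median. ER folding genes lead the rows with a median of 0.72, and glucocorticoid-induced genes close them at -0.97.

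Cytosolic chaperones rose together with those of the ER. Of 20 heat shock genes 12 rose and 0 fell, with a median of 0.51, and with single libraries left out 11 or 12 were called. Hsph1, an Hsp110 chaperone, had 5574, 8126 and 6515 counts in refed livers and 1982, 2056 and 2079 in caged food livers (log2 1.71 ± 0.18, limma adjusted p = 9.34e-07). The inducible Hsp70 gene Hspa1b had 349, 1065 and 487 against 89, 102 and 79. Even the lowest refed value was more than 3 times the highest caged food value (log2 2.65 ± 0.41, limma adjusted p = 0.000113), but reads of Hspa1b can also belong to its near-identical neighbour Hspa1a. The co-chaperone Bag3 rose 2.09-fold and the Hsp70 to Hsp90 adaptor Stip1 rose 1.65-fold.

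Of 36 ribosome biogenesis genes, which build ribosomal subunits in the nucleolus, 12 rose and 0 fell (median 0.24). The U3 snoRNP protein Rrp9 had 781, 766 and 728 counts against 505, 457 and 434 (log2 0.71 ± 0.10, limma adjusted p = 2.92e-05). The nucleolar proteins Heatr1, Nolc1 and Utp20 rose by 0.67 ± 0.13, 0.67 ± 0.13 and 0.46 ± 0.10 on the log2 scale. This count was 6 without caged food replicate 2 and 7 without refed replicate 2. Of 20 aminoacyl-tRNA synthetases, 2 passed, Wars (log2 0.38 ± 0.10) and Farsa (0.31 ± 0.09), and neither call held without caged food replicate 1 or refed replicate 3. Of 36 cytosolic ribosomal proteins 1 passed (2.78%, below the 11.3% of all genes tested), and the median was 0.08. It was Rpl10 (log2 0.75 ± 0.12), whose copies elsewhere in the genome make its count uncertain.

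The genes by which the liver releases glucose fell. Of 24 genes of gluconeogenesis and targets of FOXO1, 15 fell (62.5%) and 0 rose, with a median log2 fold change of -0.55. G6pc, the last enzyme of glucose release, lies on chromosome 11 at 101367561 to 101377903 (GRCm38). Its counts were 2248, 1385 and 1393 in refed livers, 14955, 12471 and 24227 in caged food livers and 14419, 22279 and 17062 in fasted livers. The caged food and fasted values overlapped, and the refed values lay 10.1-fold lower than caged food (log2 -3.34 ± 0.28, limma adjusted p = 3.79e-08). Pck1, which commits carbon to glucose, lies on chromosome 2 at 173153048 to 173159273. It fell from 275246, 304346 and 233165 counts to 42331, 26914 and 23431, a 9.01-fold difference (log2 -3.17 ± 0.26, limma adjusted p = 3.79e-08).

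The gene of Igfbp1, which binds insulin-like growth factors and is repressed by insulin, had 612, 260 and 426 counts in refed livers and 3252, 4829 and 13448 in caged food livers. The groups did not overlap, but caged food replicate 3 was more than 2.5 times either of its group mates (log2 -3.86 ± 0.57, limma adjusted p = 7.1e-05). The coactivator Ppargc1a fell from 1141, 752 and 923 counts to 342, 281 and 313 (log2 -1.57 ± 0.22, limma adjusted p = 4.39e-05). Irs2, the insulin receptor substrate that insulin itself represses, had 510, 523 and 718 counts in refed against 852, 1493 and 2300 in caged food livers (log2 -1.31 ± 0.26, limma adjusted p = 0.00147). Slc25a47, a liver-specific mitochondrial carrier, fell 3.44-fold. Smaller drops that passed were those of the FOXO1 relative Foxo3 (-0.53 ± 0.17), of the CREB coactivator Crtc2 (-0.30 ± 0.07), of Fbp1, the fructose bisphosphatase of gluconeogenesis (-0.36 ± 0.10), and of the insulin receptor gene Insr (-0.31 ± 0.08). The count was 11 to 15 with single libraries left out.

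The FOXO core motif TGTTTAC, searched on both strands in the same promoter windows, was in 46 of 629 promoters of genes lower in refed livers (7.31%). It was in 16 of 726 promoters of genes higher in refed livers (2.2%) and in 362 of the 11178 of all genes tested (3.24%). In the gluconeogenesis list 1 of 19 promoters held it, that of Sesn1, where the match lies 22 to 28 bases after the start. Sesn1 itself did not pass (log2 -0.26 ± 0.09, limma adjusted p = 0.071).

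Glucose use and glycogen genes split, with 3 of 27 risen, 4 fallen (25.9% called, against 11.3% of all genes tested) and a median of -0.03. Pfkfb3, which makes the activator of glycolysis fructose 2,6-bisphosphate, had 1335, 1142 and 881 counts in refed livers against 455, 402 and 233 in caged food livers (log2 1.66 ± 0.24, limma adjusted p = 7.38e-05). Ppp1r3b, which brings protein phosphatase 1 to glycogen, had 12848, 22372 and 13109 against 6452, 4665 and 3710 (log2 1.69 ± 0.36, limma adjusted p = 0.00317). The groups did not overlap for either gene. Pklr, the liver pyruvate kinase, rose by 0.60 ± 0.17 on the log2 scale. The 4 that fell were Txnip and Arrdc4, arrestins induced by glucose through ChREBP, the liver glycogen synthase gene Gys2 and the glycogen-targeting subunit Ppp1r3g. Txnip had 2305, 3185 and 2509 counts against 4112, 4043 and 4372 (log2 -0.66 ± 0.11, limma adjusted p = 0.000219). Ppp1r3g was low in all livers, 6, 3 and 12 counts against 56, 60 and 48, and its call was lost without refed replicate 2 (limma adjusted p = 0.0724). The list had 4 calls in place of 7 without refed replicate 1 and caged food replicate 3.

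**Figure D3:**
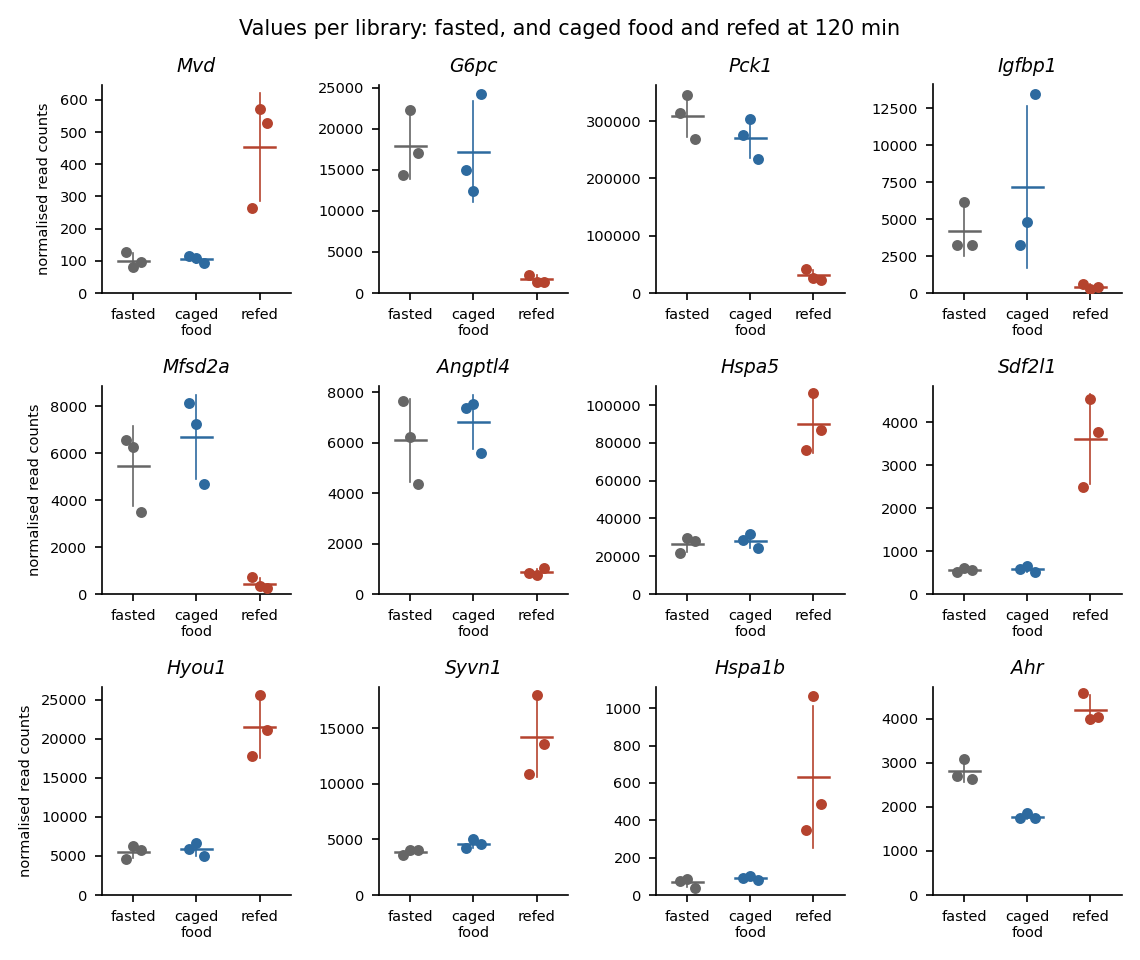
Normalised read counts (y axis, from 0) of 12 genes in the fasted, caged food 120 min and refed 120 min livers; each point is 1 library, the horizontal line is the mean and the vertical line the SD of 3 libraries. In each panel the 3 refed livers lie apart from the 3 caged food livers, and only for Syvn1 and Ahr do the caged food livers also lie apart from the fasted livers.

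Of 22 genes of fatty acid synthesis 3 rose and 2 fell (22.7% called, against 11.3% of all genes tested). Fasn, the fatty acid synthase, had 5542, 5977 and 5196 counts against 3194, 3506 and 3019 (log2 0.78 ± 0.12, limma adjusted p = 0.000144). Mid1ip1, an activator of acetyl-CoA carboxylase, rose 2.07-fold, and the acetoacetyl-CoA ligase Aacs rose by 1.56 ± 0.46 on the log2 scale. Lpin1, the phosphatidate phosphatase and fasting-induced partner of Ppargc1a, had 864, 1116 and 734 counts against 8598, 6947 and 2327 and fell 5.81-fold (limma adjusted p = 0.00197). The desaturase Fads2 fell 1.36-fold, a call lost without caged food replicate 2 (limma adjusted p = 0.0895) or refed replicate 2 (0.0813). Srebf1, the lipogenic regulator, had 1748, 5370 and 1716 counts in refed livers against 1575, 1479 and 1600. The groups did not overlap, but only refed replicate 2 lay far above the caged food livers, and the gene did not pass (log2 0.70 ± 0.34, limma adjusted p = 0.211).

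Cholesterol genes leaned upward, with 6 of 23 risen, 0 fallen (26.1% called, against 11.3% of all genes tested) and a median of 0.37. Mvd, which makes isopentenyl diphosphate, had 263, 572 and 527 counts against 114, 108 and 92 (log2 2.03 ± 0.27, limma adjusted p = 1.96e-05). The squalene epoxidase Sqle rose 3.30-fold and the demethylase Cyp51 1.95-fold. Fdps (1.49 ± 0.36), Mvk (0.53 ± 0.16) and Lss (0.45 ± 0.14) were the other calls. Without caged food replicate 3 the list had 3 calls, and that of Fdps was among those lost (limma adjusted p = 0.0518).

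All 30 genes of fatty acid oxidation and PPAR-alpha action had a negative log2 fold change, with a median of -0.38. Of these, 5 passed (16.7%, against 11.3% of all genes tested). Mfsd2a, a transporter of lysophosphatidylcholine that fasting induces, had 705, 347 and 242 counts in refed livers and 8148, 7232 and 4708 in caged food livers. Its fall of 16.7-fold was the largest among the named genes (log2 -4.06 ± 0.41, limma adjusted p = 4.58e-07). Angptl4, a secreted inhibitor of lipoprotein lipase, had 815, 737 and 1028 against 7367, 7538 and 5597 (log2 -2.99 ± 0.22, limma adjusted p = 7.22e-09). Cpt1a, the gate of fatty acids into mitochondria, fell 1.73-fold, and the dehydrogenase Acadl fell by 0.30 ± 0.09 on the log2 scale. The number of calls was 3 without caged food replicate 1 or refed replicate 2. In the respiratory chain 0 of 26 genes passed in limma, while 6 had an unadjusted p under 0.05 and 3 passed with library quality weights. All 26 values were below 0, with a median of -0.09.

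Glucocorticoid-induced genes had the lowest median of the 24 groups, -0.97, with 11 of 18 fallen and 0 risen. The list shares Angptl4, Sds, Tat, Per1 and others with the groups above and below. Klf9, a transcription factor under direct glucocorticoid control, had 3835, 4014 and 3641 counts against 9036, 8245 and 6669 (log2 -1.05 ± 0.13, limma adjusted p = 1.19e-05). The metallothionein gene Mt2 had 1362, 655 and 1087 against 5665, 5023 and 5712 (log2 -2.46 ± 0.37, limma adjusted p = 9.35e-05), and Mt1 fell by 1.68 ± 0.42 on the log2 scale. Gadd45g, a stress gene, had 571, 329 and 424 against 1024, 2937 and 1995 and fell 4.22-fold, a call lost without caged food replicate 2 (limma adjusted p = 0.0549). Tsc22d3, also called GILZ, did not pass (log2 0.12 ± 0.31, limma adjusted p = 0.88), and its sign changed without caged food replicate 3 (-0.09).

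Immediate early genes, which respond within minutes to growth factors and hormones, changed both ways: 7 of 27 fell and 2 rose. Btg2, an antiproliferative gene, had 577, 546 and 517 counts against 919, 915 and 2047. Zfp36, which destabilises RNAs of inflammation, fell 1.76-fold and the phosphatase gene Dusp1 1.86-fold, while Ier5, a factor tied to heat shock, rose 1.53-fold. Dusp1 was lost without caged food replicate 3 (limma adjusted p = 0.054) and Ier5 without caged food replicate 2 (0.0561). Without any one of the caged food replicates the list had 5 calls in place of 9.

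Of 19 clock genes, 2 passed (10.5%, near the 11.3% of all genes tested) and moved in opposite directions. Per2 had 1789, 3312 and 1836 counts in refed against 1215, 1030 and 460 in caged food livers (log2 1.41 ± 0.29, limma adjusted p = 0.00214). Per1, which glucocorticoids induce, had 907, 972 and 548 against 3607, 2280 and 1498 (log2 -1.56 ± 0.37, limma adjusted p = 0.00723). The call of Per1 was lost without caged food replicate 1 (limma adjusted p = 0.0589) or refed replicate 3 (0.0531), and that of Per2 when the 6 livers were fitted alone (0.0544). Arntl, the gene of BMAL1, had 939, 283 and 669 against 392, 366 and 1177 (log2 0.02 ± 0.43, limma adjusted p = 0.984), with no common direction.

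Amino acid breakdown and the urea cycle gave 12 falls and 2 rises among 34 genes, with a median of -0.36. Sds, which turns serine into pyruvate, had 3955, 4634 and 3902 counts against 11031, 9003 and 13671 (log2 -1.42 ± 0.21, limma adjusted p = 6.94e-05). The transaminases Got1 and Gpt2 fell 2.21-fold and 1.44-fold, and the ornithine carrier Slc25a15 fell 1.34-fold. The risen genes were Nags, which makes the activator of the urea cycle (log2 0.29 ± 0.08), and Glud1, glutamate dehydrogenase (0.40 ± 0.13). This count depended on single libraries: it was 9 without caged food replicate 1, 8 without refed replicate 1, 7 without caged food replicate 3 or refed replicate 3 and 6 without refed replicate 2. It was also 7 after quantile normalisation.

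Autophagy and lysosome genes fell in 6 of 26 cases and rose in none (23.1% called, against 11.3% of all genes tested). Ulk1, the kinase that starts autophagy, had 2336, 2242 and 2125 counts against 4832, 4684 and 4258. The fold was 2.05 (log2 -1.04 ± 0.09, limma adjusted p = 5.52e-08). Map1lc3b, the LC3 protein of the autophagosome membrane, had 2990, 2882 and 2687 against 4257, 4509 and 4304 (log2 -0.61 ± 0.08, limma adjusted p = 1.82e-05). The FOXO target Depp1, listed as 8430408G22Rik, fell 2.87-fold, a call lost without refed replicate 1 and caged food replicate 3 (limma adjusted p = 0.0838). The LC3 relative Gabarapl1 fell 1.39-fold, and its call was lost without refed replicate 3 (limma adjusted p = 0.0725), where the list had 3 calls.

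Among 23 hormones and growth factor binding genes of liver, 3 rose and 2 fell (21.7% called, against 11.3% of all genes tested). Angptl8, listed as Gm6484, encodes a feeding-induced inhibitor of lipoprotein lipase. It had 7377, 7211 and 5095 counts in refed livers and 1108, 853 and 1114 in caged food livers (log2 2.67 ± 0.30, limma adjusted p = 3.36e-06), opposite to its fasting counterpart Angptl4. Inhba, a subunit of activin, rose 2.66-fold, and Prok1, a secreted prokineticin, rose 3.73-fold with a call lost without caged food replicate 2 (limma adjusted p = 0.0562). The 2 that fell were Angptl4 and Igfbp1.

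Of 20 hepatocyte transcription factors 3 rose, and 1 fell, the Cebpb described above (20.0% called, against 11.3% of all genes tested). Onecut2 had 4944, 4998 and 5105 counts against 3770, 3218 and 3334 (log2 0.55 ± 0.12, limma adjusted p = 0.00419). Onecut1, also called HNF6, had 1098, 1294 and 1146 against 850, 429 and 500 (log2 1.05 ± 0.31, limma adjusted p = 0.0277), and Gata4 rose 1.24-fold. The call of Onecut1 held only with caged food replicate 1 left out and was lost for each of the other 5 libraries (limma adjusted p from 0.0506 to 0.139). That of Gata4 did not hold without caged food replicate 1 or 3 or any refed replicate (0.0569 to 0.158), and its limma adjusted p was 0.0522 with a replicate block. The list had 2 calls without any one of the refed replicates.

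Bile acid genes moved little. The sterol exporters Abcg5 and Abcg8 fell 1.37-fold and 1.59-fold and the receptor gene Fgfr4 rose 1.26-fold, 3 calls among 20 genes, none of which held without refed replicate 3 or without caged food replicate 2. Cyp7a1, the rate-limiting enzyme of bile acid synthesis, had 13432, 23435 and 18429 counts against 9174, 5990 and 10636. The groups did not overlap, and the adjusted p fell just short (log2 1.1 ± 0.36, limma adjusted p = 0.0505). It passed without refed replicate 1 (limma adjusted p = 0.0406) and under 5 other settings. Of 23 acute phase genes 0 passed in limma, and 0 had an unadjusted p under 0.05. Saa3 had 116, 181 and 306 counts against 141, 90 and 176, which overlap (log2 0.51 ± 0.36, limma adjusted p = 0.43).

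Several of the largest changes fell outside the lists. Among the rises, Serpina9, a serpin, had 79, 141 and 123 counts in refed livers, 24, 4 and 9 in caged food livers and 3, 1 and 0 in fasted livers (log2 3.38 ± 0.66, limma adjusted p = 0.00143). Hsd3b5, a male-biased steroid dehydrogenase of liver, had 1019, 2268 and 1163 counts against 434, 141 and 123, a 7.06-fold difference (limma adjusted p = 0.00024). Fasted livers had 522, 856 and 451, above all 3 caged food livers. Against them neither refed (log2 1.24, limma adjusted p = 0.0754) nor caged food livers (log2 -1.58, limma adjusted p = 0.29) passed. The cytochrome P450 Cyp2c70, which makes muricholic acids in mice, had 5734, 13092 and 5565 against 1846, 1148 and 2105, a 4.54-fold rise. Synj2, an inositol phosphatase of vesicle traffic, had 452, 593 and 503 against 172, 153 and 110 (log2 1.84 ± 0.21, limma adjusted p = 3.11e-06). The carboxylesterase relative Ces4a was 3.44-fold higher in refed than in caged food livers. Against fasted livers neither refed (log2 0.72, limma adjusted p = 0.193) nor caged food livers (log2 -1.07, limma adjusted p = 0.388) passed for this gene. A histone gene, Hist2h3c2, rose 3.76-fold, and because near-identical histone genes share reads this value is uncertain.

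Among the falls, Mycl, a member of the MYC family, had 105, 119 and 110 counts against 609, 770 and 608, with narrow spread in both groups (log2 -2.55 ± 0.18, limma adjusted p = 2.34e-09). Zbed5, which derives from a transposon, had 135, 106 and 98 against 612, 506 and 552 (log2 -2.30 ± 0.20, limma adjusted p = 6.34e-08). Slc25a25, a calcium-dependent ATP and phosphate carrier of mitochondria, had 10432, 2263 and 2099 against 16620, 19435 and 24915. Refed replicate 1 was more than 4 times either of the other refed livers, and the groups still did not overlap (log2 -2.45 ± 0.39, limma adjusted p = 0.000178). The keratin gene Krt23 fell 4.83-fold. Cend1, a neuronal gene of low level here, had 38, 8 and 13 counts against 61, 83 and 75 and was lost without refed replicate 2 (limma adjusted p = 0.0856).

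Set beside the fasted livers, caged food livers of 120 min lay near the fasted livers in the median of these genes. The 952 genes higher in refed than in caged food livers had a median log2 difference from fasted livers of 0.47 in refed and of 0.00088 in caged food livers. For the 845 lower genes the medians were -0.48 and 0.07. The 2 comparisons share the fasted livers and are given side by side. The genes were chosen by the difference between these same refed and caged food livers, so the medians depend on that choice. Refed livers differed from fasted livers in 2243 genes (14.1%) and caged food livers in 6 (0.0377%), with 1226 genes of the latter comparison at an unadjusted p under 0.05. Without caged food replicate 3 the count of 6 became 0 in limma, and with library quality weights it became 121. Hspa5 stood at 1.77 above fasted in refed livers and at 0.10 in caged food livers, and Pck1 at -3.37 and -0.19.

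**Figure D4:**
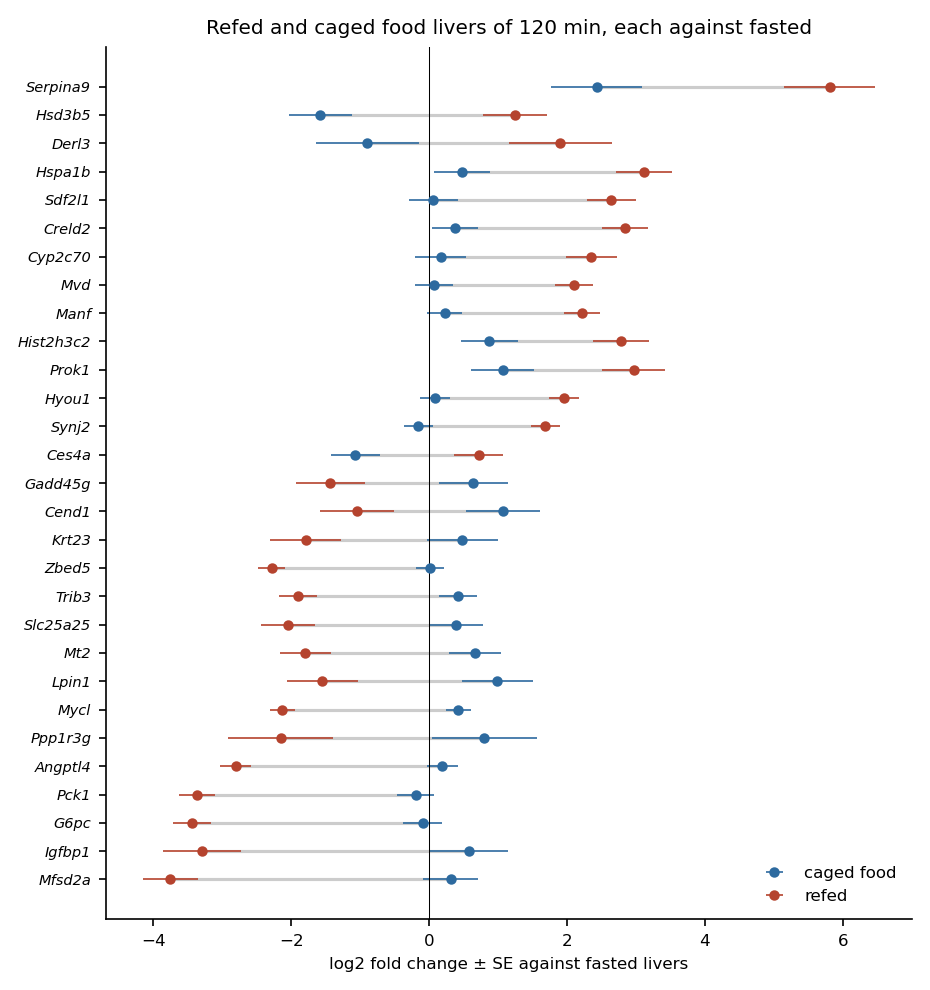
Log2 fold change against fasted livers (x axis, bars are SE) of refed (red) and caged food (blue) livers at 120 min for the named genes that rose or fell most between these groups. Pck1 lies at -3.37 in refed and -0.19 in caged food livers, and Hsd3b5 at 1.24 and -1.58.

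The 6 genes called between caged food and fasted livers were Ahr, Sipa1l2, Lrch1 and the pseudogene Nlrp5-ps, which were lower, and Tbc1d8 and Arid3a, which were higher. None of these 6 calls held without caged food replicate 3. For Ahr, caged food and refed livers lay on opposite sides of the fasted livers, and for Tbc1d8 they did so in the mean. Ahr, the receptor for dioxins and dietary indoles on chromosome 12 at 35497974 to 35535038, had 4582, 3987 and 4031 counts in refed livers, 1743, 1848 and 1740 in caged food livers and 2694, 3082 and 2627 in fasted livers. The 3 groups did not overlap, with refed above fasted (log2 0.58 ± 0.11, limma adjusted p = 0.000496) and caged food below it (log2 -0.65 ± 0.11, limma adjusted p = 0.014). Tbc1d8, a gene with a domain that regulates Rab proteins, had 2748, 2709 and 2845 counts in caged food livers, 947, 838 and 822 in refed livers and 1423, 1157 and 910 in fasted livers. Sipa1l2, a Rap regulator, had 182, 165 and 149 counts in caged food livers against 395, 335 and 276 in refed and 337, 525 and 351 in fasted livers.

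The same contrast at other times used other libraries. At 240 min, 733 of the 952 higher genes (77.0%) were again called higher, which is 31.5% of the 2329 genes called higher there (14.6% of all genes tested), and 621 of the 845 lower genes (73.5%) were again called lower, 31.5% of 1974 (12.4%). Called in the opposite direction were 2 and 5 genes. At 60 min the repeats were 376 of 952 (39.5%, and 35.1% of the 1072 called higher, 6.73% of all) and 254 of 845 (30.1%, and 38.1% of the 666 called lower, 4.18% of all), with 11 and 6 genes called the opposite way. At 30 min, 17 and 6 genes were called in the same direction, out of 33 (0.207%) and 11 (0.069%) called there. Of the group at 240 min, 2 libraries carry conflicting labels, and they were placed by their titles.

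**Figure D5:**
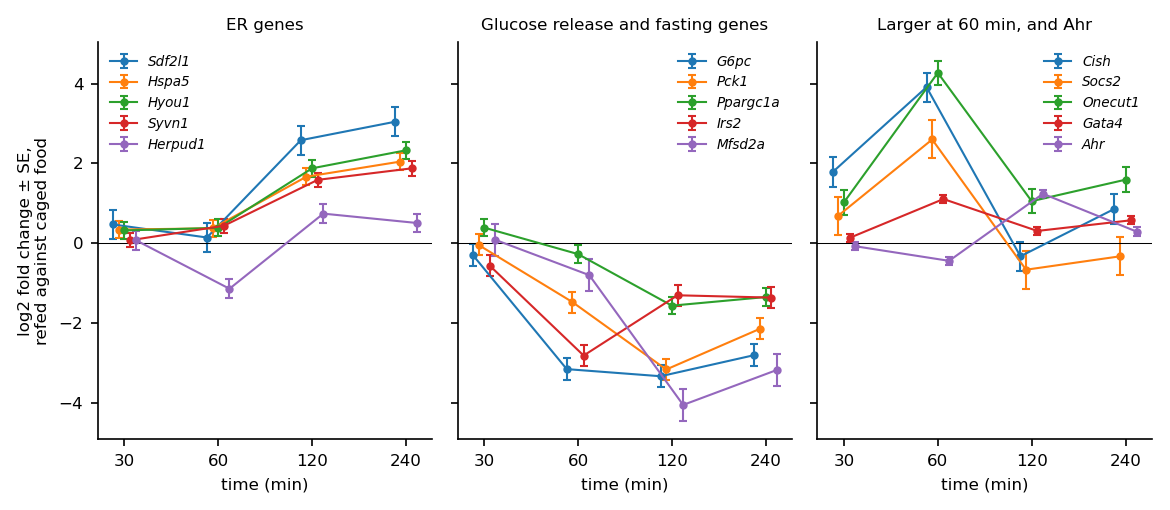
Log2 fold change of refed against caged food livers (y axis, bars are SE, 3 libraries per group) at 30, 60, 120 and 240 min (x axis, equally spaced) for 3 sets of genes. Sdf2l1 moves from 0.14 at 60 min to 2.58 at 120 min, Cish from 3.91 to -0.33, and Ahr has its highest value, 1.24, at 120 min.

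The contrast of refed with caged food itself, tested as a difference of differences, changed between 60 and 120 min in 255 genes (1.6%, with 0.866% larger and 0.734% smaller at 120 min), and between 120 and 240 min in 80 genes (0.502%). Of the 27 ER folding genes, 11 had a larger difference at 120 than at 60 min and 0 a smaller one. At 60 min 0 of the 27 were higher in refed livers and 2 were lower (median -0.11), and at 240 min 20 were higher (median 0.74). Caged food replicate 2 of 60 min stood apart from its group on the second principal component (-35.9 against 18.5 and 8.48) and had the highest value of its group for 24 of the 27 genes. Without it 5 genes had a larger difference at 120 min and 0 a smaller one, and at 60 min 1 was higher and 1 lower (median 0.09). Hspa5 had a log2 fold change of 0.37 at 60 min, 1.67 at 120 min and 2.04 at 240 min, and its change from 60 to 120 min passed (difference 1.30, limma adjusted p = 0.0337) but not without that library (1.05, limma adjusted p = 0.0868), which had 54080 counts against 34443 and 31038. Sdf2l1 also passed (difference 2.44, limma adjusted p = 0.0131), and it did so without that library, which had 2055 counts against 567 and 857 (difference 1.92, limma adjusted p = 0.0324). Herpud1 stood at -1.15 at 60 min (difference 1.88), and part of this difference lay in its caged food livers. These had 29422, 26317 and 31158 counts at 60 min, above the 16905, 16296 and 10393 of 120 min and above all 3 fasted livers. The rest lay in the refed livers, whose mean log2 value was higher at 120 than at 60 min.

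Heat shock genes had medians of 0.52, 0.51 and 0.74 at 60, 120 and 240 min. Between 120 and 60 min 0 of the 20 differed in limma, with 1 at an unadjusted p under 0.05. The gluconeogenic genes followed different courses. G6pc stood at -3.16 at 60 min and at -3.34 at 120 min (difference -0.18, limma adjusted p = 0.901). Pck1 went from -1.48 to -3.17 (difference -1.69, limma adjusted p = 0.0193) and Ppargc1a from -0.28, which did not pass, to -1.57 (difference -1.29, limma adjusted p = 0.0352). Irs2 moved the other way, from -2.82 to -1.31 (difference 1.51, limma adjusted p = 0.0338), a call lost without caged food replicate 2 of 60 min (limma adjusted p = 0.0798). Mfsd2a went from -0.80 to -4.06. Of the genes that had risen early, Onecut1 went from 4.27 to 1.05 and Gata4 from 1.11 to 0.30 (difference -0.80, limma adjusted p = 0.00308).

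Ahr had a larger difference at 120 min than at both 60 min (difference 1.68, limma adjusted p = 1.22e-06) and 240 min (difference 0.95, limma adjusted p = 0.00762), and among the named genes only Ahr passed both tests. Other named genes, such as Synj2, Pck1, Mfsd2a and Eif2ak3, also had their largest change of these 3 times at 120 min in either direction, without passing against 240 min. Its caged food livers ranged from 2858 to 3521 counts at 60 min and from 2214 to 2862 at 240 min, above the 1740 to 1848 of 120 min. Fasn had not reached its later level, with a log2 fold change of 0.78 at 120 min and 1.55 at 240 min (difference -0.77, limma adjusted p = 0.0418). Tfrc, the transferrin receptor gene, went from 0.56 to 2.26 between the same times (difference -1.69, limma adjusted p = 0.0195).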

How the data were processed

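Liver mRNA of 27 libraries in 9 groups of 3 was measured by stranded sequencing. Per the submitters' processing notes, reads were aligned to mm10 (GRCm38) with STAR 2.4.0a and counted with featureCounts 1.4.5-p1. The values of the deposited table are a score, read counts that were normalised and rounded. How they were scaled is not given in the sources used here, and a single factor per library was assumed. Because the counts cannot be had back exactly, no count model was used. Depth was estimated from the spacing of low values (1 read equals 0.776 to 0.997 normalised counts in the 6 libraries), a method off by at most 0.0329% on 9 simulated tables.

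A gene was tested when 3 or more of the 27 libraries reached a value of 10 (15932 of 45706 genes). On log2(value + 1), limma 3.58.1 in R 4.3.3 was fitted to all 9 group means with a mean-variance trend, which leaves 18 residual degrees of freedom. A fold change is therefore on the log2(value + 1) scale and understates changes of low genes. Adjustment followed Benjamini-Hochberg across the genes tested, and calls are adjusted p-values under 0.05. Differences between times are contrasts in the same fit. On simulated data for this comparison, with 16017 genes tested, 67.2%, 80.6% and 100% of genes changed 1.5, 2 and 4 times were called, and 11 of 15817 unchanged genes. Simulated counts were drawn independently for each library, with no library standing apart. Only genes with a mean of at least 10 in caged food livers were changed, so these rates need not hold for the real livers.

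Groups follow the titles. At 240 min, 2 libraries have a treatment label that contradicts the title. The design text speaks of 60 samples, and those beyond the 27 were not analysed here. Replicate numbers do not pair the libraries: over 108 pairs with the same number the mean residual correlation was -0.00944, and the 3 pairs of 120 min gave -0.0826, -0.0742 and 0.0854. Coordinates are those of GENCODE M21, which held 98.8% of the identifiers, and promoters are from RefSeq.

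The members, the 24 gene lists and the 9 marker lists were chosen with earlier results of these data known. Named were the 15 largest rises and falls among called genes whose groups did not overlap (mean at least 50 in the higher group, without predicted genes, clones, pseudogenes and sex-linked genes), a panel of metabolic, ER and clock genes, up to 4 members of lowest p per list, the 5 largest each way for each difference between times, and the genes called between caged food and fasted livers. A few genes of these sets are not reported here and were left out of the list counts. Further list members given by one value were chosen after their values were seen. Alternatives were quantile normalisation, a pseudocount of 5, no filter, a fit of the compared groups alone, a replicate block, each library of 120 min left out, and the 2 libraries of conflicting labels left out or regrouped. Quality weights (arrayWeights of limma), leaving out refed replicate 1 with caged food replicate 3, and leaving out caged food replicate 2 of 60 min from the difference between 120 and 60 min were added after the data were seen.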

Additional observations from a re-analysis of the deposited data

Results flagged for a closer look

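The log2 difference between refed and caged food livers was tested for a change between 120 min and the neighbouring times, and the 5 largest changes each way are given with their values, leaving out genes with a mean under 50, predicted genes and genes under clone names. Of the genes left out, Depp1, listed as 8430408G22Rik, had a difference of 3.0 between 120 and 60 min. Compared with 60 min, the difference at 120 min was lower for Cish by -4.25 and for Socs2 by -3.27, feedback inhibitors of cytokine and growth hormone signalling. Cish had 2654, 3644 and 3435 counts in refed livers of 60 min against 245, 226 and 173, and 463, 726 and 358 against 494, 841 and 578 at 120 min. It was also lower for Mfsd2a (-3.26), Onecut1 (-3.22) and Gadd45g (-2.82). It was higher for Hsd3b5 (2.57, a call lost without caged food replicate 2 of 60 min, limma adjusted p = 0.0607), Sdf2l1 (2.44), Herpud1 (1.88), Tsc22d3 (1.81) and Snai2 (1.81), of which Tsc22d3 and Snai2 did not pass at 120 min itself.

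Compared with 240 min, the difference at 120 min was lower for the retinoic acid hydroxylase Cyp26a1 (-2.07), the galactosyltransferase B3galt1 (-1.77), the transferrin receptor gene Tfrc (-1.69), the ephrin receptor gene Epha2 (-1.49) and the transcription factor gene Arid3a (-1.27). B3galt1 had 1215, 860 and 1194 counts in refed and 3211, 1646 and 2198 in caged food livers of 120 min. It was higher for Sipa1l2 (1.91), the kinase gene Wnk4 (1.8), the kinetochore gene Dsn1 (1.62), the muscle atrophy ubiquitin ligase gene Fbxo32 (1.62) and Tmtc2 (1.59). Each of these changes passed in limma over all genes with all libraries in. Higher and lower here compare the times, and need not mean a rise or fall at 120 min. Among the genes that did not pass at 120 min itself were Cyp26a1, Tfrc, Epha2 and Arid3a (limma adjusted p = 0.759, 0.118, 0.136 and 0.21). Wnk4 and Dsn1 also did not pass there, and the sign of Dsn1 depended on the setting.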

How the results depend on the processing

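The 1797 calls at 120 min were 3303 with quality weights, 1185 without refed replicate 1 and caged food replicate 3, 376 with the 2 libraries of 240 min regrouped by their treatment labels, and 1111 to 1504 with 1 library left out (lowest without refed replicate 2). For the difference between 120 and 60 min the 255 calls were 82 with the compared groups alone, 32 regrouped, 432 weighted and 141 to 299 with 1 library left out (178 without caged food replicate 2 of 60 min). For the difference between 120 and 240 min the 80 calls were 26, 3, 565 and 28 to 80 in the same order, and 31 without the 2 libraries of 120 min. The 6 calls between caged food and fasted livers were 11 with the compared groups alone, 0 regrouped, 121 weighted, 0 without the 2 libraries and 0 to 9 with 1 left out. The 2 regrouped libraries lay on the first principal component at 37.06 (titled refed) and -20.51 (titled caged food). The other refed livers of 240 min lay at 49.39 and 40.81, and the other caged food livers at -17.35 and -17.92. Regrouping moved no library of 120 min, and log2 fold changes at 120 min stayed the same, such as -3.86 for Igfbp1 and 0.78 for Fasn. Why the counts of calls changed was not tested for any setting. The replicate block gave 1706, 239, 61 and 6 calls and ended 1 named gene's call, that of Gata4 (limma adjusted p = 0.0522). Of 101 named genes called, 40 were called under all settings. Regrouping the 2 libraries of 240 min ended the calls of 59 named genes, and each other setting ended at most 12.

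Signs that changed belong to genes that did not pass. Arntl was -0.0095 after quantile normalisation and -0.34 to 0.57 with 1 library left out. Tsc22d3 was -0.10 weighted, -0.14 without the 2 libraries and -0.0937 to 0.304 with 1 left out. With 1 left out Snai2 was -0.0843 to 0.295 and Cyp26a1 -0.548 to 0.0314. Dsn1 was 0.0266 after quantile normalisation, 0.0309 weighted, 0.127 without the 2 libraries and -0.285 to 0.240 with 1 left out. The share of higher genes among calls was 45.4% without the 2 libraries against 53.0% with all. Depth limits low genes such as Ppp1r3g and Cend1, where a few reads move the value.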
